A study of Camelina sativa with 159 samples.

Results

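CN 113691 is a late-flowering accession of Camelina sativa, an allohexaploid oilseed of the mustard family, and its leaf transcriptome was compared with that of early-flowering accessions grown with it. It has 3 libraries of 159 in the series, coded Cs010, Cs019 and Cs030. They were chosen by genotype label and set against the Cs-coded libraries of accessions labelled with a flowering time (FT) under 48 days, using libraries with at least 200000 counts. This left 51 early libraries of 34 accessions, because 1 Cs-coded early library was shallower. FT, the days a plot takes until 50% of its plants flower, is 59.4 in the label of CN 113691 and 43 to 47.9 in those of the early accessions used, and by the study's methods it was scored in field plots. The plants sampled for RNA were untreated seedlings from 1 greenhouse regime of long days, and true leaves were taken from young plants. The 3 other late accessions of the series were used beside it, namely CN 113660 (FT 61.9 days, 3 libraries), CN 113692 (55 days, 2 libraries) and CN 113662 (52 days, 3 libraries). CN 113691 is a single accession, so nothing measured here can separate late flowering from any other property of that accession.

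In Arabidopsis, a close relative, the change from leaves to flowers is set by floral integrators that collect signals from day length, cold, age and hormones. SOC1 and its relative AGL19 are MADS-box transcription factors that promote flowering, SPL4 and SPL15 act in the age pathway, and SNZ is an AP2-type repressor of flowering. C. sativa carries most genes in a copy on each of 3 subgenomes, so a change in 1 copy can be read beside the others.

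The 3 CN 113691 libraries held 3604700 to 5848810 counts and the early libraries 444464 to 15246400, with a median of 4622560. Each pair of CN 113691 libraries differed by more than sampling noise, with a chi-square per gene model of 3.54 to 4.67 where identical libraries would give about 1. The study's methods speak of biological replicates, but the labels do not say whether these libraries came from separate plants. The p-values rest on a spread pooled over both groups of a comparison. Against the early set that spread comes mostly from the early libraries and includes differences between accessions. The leaf markers were present. Csa06g036860.1, a chlorophyll a/b-binding protein of photosystem II, had 2001 to 2218 CPM, the count relative to the scaled library total, in CN 113691, and the early libraries had 380 to 2989. The CN 113691 code numbers run from 10 to 30, and 49 of the early libraries have codes of 52 or more, so code number and accession cannot be told apart except through the early libraries Cs046 and Cs048.

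Leaves of CN 113691 had 339 gene models that passed the test with a log2 fold change of at least 1 in size and lay outside the whole range of the 51 early libraries. This number depended on the early set, with 153 against the early libraries of all 3 code series and 1275 against Cs046 and Cs048 alone. Of 45863 gene models tested, 1141 (2.49%) were higher and 1379 (3.01%) lower at an adjusted p under 0.05 (edgeR quasi-likelihood test, Benjamini-Hochberg over all models tested). A change was called clear when it also reached a log2 fold change of 1 in size and all 3 libraries lay outside the range of the 51 early ones, which held for 140 higher (0.305%) and 199 lower models (0.434%). The median size of the clear changes was 1.73 on the log2 scale for higher and 2.30 for lower models. Sizes over 4 were reached by 16 of the higher and 32 of the lower models. Of all models tested, 28 (0.0611%) were above and 46 (0.1%) below each of the other libraries of that depth in the series, and 19 and 45 of these were clear calls. Of the early accessions, 20 have 1 library, 11 have 2 and 3 have 3, so some early libraries share an accession. With counts summed per accession, which treats CN 113691 as 1 sample against 34, the test called 346 models in either direction in place of 2520. Without Cs010, Cs019 or Cs030 it called 1238, 1021 and 1154, and against Cs046 and Cs048 alone 576 higher and 787 lower.

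**Figure D1:**
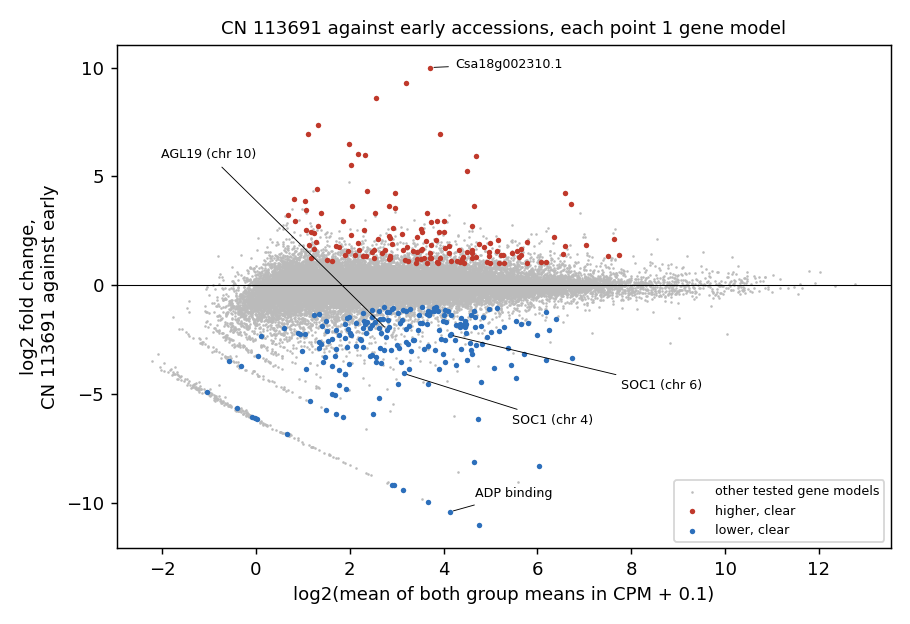
Each point is 1 of the 45863 gene models tested. The x axis is the log2 of the mean of both group means in CPM plus 0.1, the y axis the log2 fold change of CN 113691 against the early libraries. Red points are the 140 clear higher models and blue points the 199 clear lower ones, and the slanting line of points at the lower left is formed by models with no count in CN 113691.

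The 2 SOC1 copies and 2 AGL19 copies of the study's FT-linked module, SPL15 and SNZ were lower in CN 113691. C. sativa has a further copy of SOC1 and of AGL19 outside that module, and these were not analysed here. Of the 11 flowering genes that the study names, 10 could be tested, 6 were lower, none was higher and 4 did not pass, where 3.01% of all models were lower and 2.49% higher, with a median log2 fold change of -1.93 beside -0.03 over all models tested. The genes were named by the study from these samples, mostly from a module that followed FT, so their direction is not independent evidence. In bulk leaf RNA, fewer cells of a type and less RNA per cell cannot be told apart.

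SOC1 had the largest fall of the flowering genes. Its copy on chromosome 4, Csa04g063650.1, had 1.62, 0.574 and 0.509 CPM in Cs010, Cs019 and Cs030. The early libraries had 2.46 at the lowest, 15.7 at the median and 35.2 at the highest, so the groups did not overlap. The fitted level was 16.7-fold lower, a log2 fold change of -4.07 with a standard error (SE) of 0.51 and an adjusted p of 4.13e-08 (edgeR). The chromosome 6 copy, Csa06g052060.1, kept more of its level, with 6.29, 4.87 and 6.36 CPM against an early range of 14.02 to 60.7 and an early median of 28.8. It was 4.90-fold lower (log2 fold change -2.29, SE 0.33, edgeR adjusted p 9.05e-07), again with no overlap. These SOC1 copies passed under each of the 10 alternatives run for this comparison.

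The AGL19 copies of the module were lower as well. Csa10g020140.1 on chromosome 10 had 3.78, 1.72 and 2.29 CPM, below every early library (5.22, 11.4 and 16.5 for the lowest, median and highest), and was 4.13-fold lower (log2 fold change -2.05, SE 0.28, edgeR adjusted p 2.54e-07). Csa12g033740.1 on chromosome 12 was expressed at a low level throughout, with 0.539, 0.574 and 0 CPM against an early median of 1.82. Its groups overlapped with 2 early libraries, and its call (log2 fold change -2.31, SE 0.69, edgeR adjusted p 0.0326) was lost without any 1 of the 3 CN 113691 libraries, at adjusted p of 0.115, 0.103 and 0.244 without Cs010, Cs019 and Cs030, and with counts summed per accession (0.619).

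SPL15, Csa09g070470.1, had 0.360, 0.287 and 0.255 CPM in the 3 libraries and an early range of 0.273 to 4.74 with a median of 1.90. All but 1 of the early libraries lay above the highest CN 113691 value, and the log2 fold change was -2.71 (SE 0.62, edgeR adjusted p 0.00278, 0.0938 with counts summed per accession). The repressor SNZ, Csa05g014000.1, was also lower, with 1.08, 3.73 and 2.55 CPM against an early median of 8.05. Its log2 fold change was -1.82 (SE 0.51, edgeR adjusted p 0.0205), and 46 of the 51 early libraries were above the highest CN 113691 library. This call was lost without Cs010 (adjusted p 0.237), without Cs030 (0.105), with counts summed per accession (0.533) and against Cs046 and Cs048 alone (0.131).

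SDG16, Csa10g015090.1, a SET domain gene of the histone methyltransferase kind, had 3.24, 4.01 and 3.56 CPM against an early median of 8.31. The difference did not pass (log2 fold change -1.13, SE 0.40, edgeR adjusted p 0.0824), although it did with DESeq2 (adjusted p 0.0494) and against the early libraries of all 3 code series (0.0383). AGL103, Csa07g033470.1, another MADS gene, had no count in CN 113691 but was below the filter on low counts, since its early libraries reached only 2.06 CPM with a median of 0.883. In the 3 other late accessions SOC1 on chromosome 4 had 0 to 0.304 CPM in CN 113660, 0.471 and 0 CPM in CN 113692, and 0.938, 8.70 and 6.02 CPM in CN 113662. The values of the first 2 of these accessions lay at or below those of CN 113691, while 2 of the 3 CN 113662 libraries lay well above them.

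**Figure D2:**
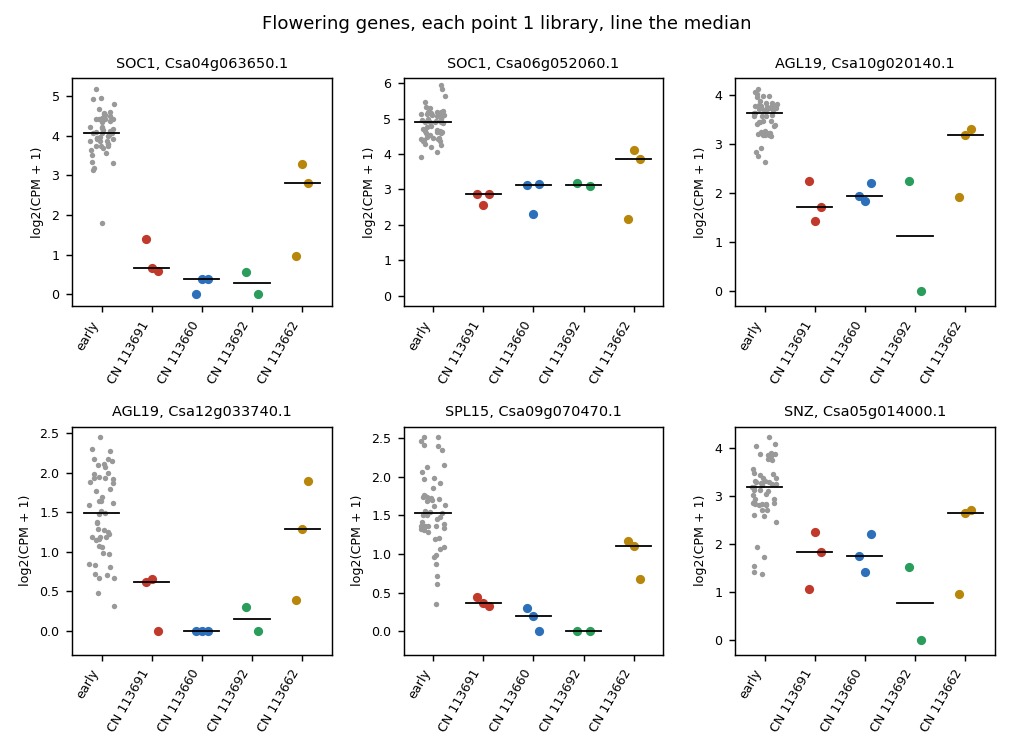
Each panel is 1 flowering gene, the y axis is log2(CPM + 1), each point is 1 library and the black line is the median of the group. CN 113691 (red) lies below all 51 early libraries (grey) for the SOC1 copies shown and for AGL19 on chromosome 10, and overlaps the lowest early libraries for the other 3 genes.

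The study's tan module, a set of 164 gene models that it grouped by co-expression in these samples and linked to FT, moved mostly one way. Of 163 tested, 90 were lower (55.2%, beside 3.01% over all models), none was higher and 73 did not pass, and the median log2 fold change was -1.46. Since the study picked the module on these samples, the count describes CN 113691 and does not test the module. Of the 90, 36 were clear, where 0.434% of all models were clear and lower. In 77.9% of the tan models tested the CN 113691 libraries overlapped the early range, beside 99.1% of all models. Counts summed per accession left 40 lower and Cs046 and Cs048 alone left 51, each with none higher.

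Among the 5 tan models with the largest fall, 4 had no count in any CN 113691 library. Csa07g017920.1 had 11.98 to 67.8 CPM in the early libraries (median 33.1), and a limit of 3 counts over the 3 CN 113691 libraries puts it at least 151-fold lower. Csa03g058010.1 (early 16.9 to 37.4 CPM) was at least 109.8-fold lower, and Csa00717s010.1, on an unplaced scaffold (early 3.70 to 41.7 CPM), at least 63.8-fold lower. These falls were not all limited to CN 113691, since Csa07g017920.1 had at most 0.235 CPM and Csa00717s010.1 no count in CN 113660 and CN 113692, while CN 113662 had 12.8 to 26.7 and 15.6 to 31.02 CPM. Csa03g058010.1 was low in CN 113660 too, at 0.235, 5.93 and 0 CPM. It had 20.2 and 10.5 CPM in CN 113692 and 5.32, 21.2 and 12.5 CPM in CN 113662. Csa20g032040.1 had 0.180, 0 and 0.255 CPM where early libraries had 24.8 to 65.9 (median 49.7), a log2 fold change of -8.12 (SE 0.30, edgeR adjusted p 8.18e-31). Csa07g005560.1, also without a count, was at least 21.1-fold lower than the early mean, but 4 of the early libraries also had none and its call was lost with counts summed per accession (edgeR adjusted p 0.144).

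The study lists 4 tan genes under ADP binding, which are thus part of a module picked for following FT and not all such genes of the genome. In CN 113691, 3 of the 4 were lower, beside 3.01% of all models, with at most 1.15 CPM, and the other lay within the early range. ADP binding is the term given to the nucleotide-binding domain that many plant resistance proteins carry. Csa05g052440.1 had 0.180, 1.15 and 1.02 CPM against 28.96 to 89.5 in early libraries (median 50.97), 70.6-fold lower (log2 fold change -6.14, SE 0.38, edgeR adjusted p 1.63e-19). It was near absent in 2 other late accessions too, with 0, 0.152 and 0 CPM in CN 113660 and 0.471 and 0 CPM in CN 113692, while CN 113662 had 2.81, 41.2 and 14.9 CPM. Csa07g017920.1 is the gene without a count described among the tan models. Its neighbour Csa07g017930.1 had 0.360, 0 and 1.02 CPM against an early median of 14.4 and was lower (log2 fold change -4.79, SE 1.03, edgeR adjusted p 0.00152), although 1 early library had no count either and the call was lost with counts summed per accession (adjusted p 0.179).

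Csa09g095890.1 stood apart from these 3. It had 27.5, 33.6 and 34.4 CPM in CN 113691, within the early range of 12.6 to 63.7 (median 31.5), with a log2 fold change of -0.05 (SE 0.20, edgeR adjusted p 0.940). In CN 113660 the same gene had 0.706, 1.37 and 1.20 CPM, and CN 113691 was 27.7-fold higher than that accession (log2 fold change 4.79, SE 0.26, edgeR adjusted p 7.94e-07). The libraries of CN 113692 differed, with 2.59 CPM in Cs007 and 28.6 in Cs008, and CN 113691 was not called against them. CN 113662 had 37.9 to 50.2 CPM. Against the early libraries and CN 113660, the 2 vacuolar acidification genes on chromosome 11 gave a like pattern. Csa11g001440.1 had 25.2, 20.1 and 20.1 CPM and Csa11g001430.2 had 7.91, 8.60 and 7.13 CPM, both within the early range and with no call against it (edgeR adjusted p 0.168 and 0.289). Against CN 113660, where they had 1.21 to 3.53 and 0.301 to 1.22 CPM, they were 9.61-fold and 10.03-fold higher in CN 113691 (edgeR adjusted p 2.43e-05 and 0.000213).

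In 9 gene models, counts were absent or nearly absent on one side and present in every library of the other. A model was taken as off when CN 113691 had no count and every early library at least 1 CPM, and as on when all 3 CN 113691 libraries had at least 5 CPM and no early library more than 0.5. There were 3 on and 6 off. The files pair no gene name with these IDs, so they are given as labelled. The on models entered the test through their level in CN 113691 alone, and the off models through the early libraries alone. Their differences follow from that choice.

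Csa18g002310.1 had 27.7, 27.2 and 23.4 CPM in CN 113691 and no count in any of the 51 early libraries or in the 8 libraries of the other late accessions. With the early limit set at 3 counts over all 51 libraries, it was at least 2192-fold higher. Its highest level in any other library of that depth was 1.504 CPM, outside the Cs codes. Csa13g047150.1 had 16.9, 18.6 and 18.8 CPM and no more than 0.126 CPM in an early library. Unlike Csa18g002310.1 it was also expressed in CN 113660 (13.4, 12.6 and 19.6 CPM) and in 2 of 3 CN 113662 libraries (11.6, 0 and 7.82 CPM), while CN 113692 had none.

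Of the off models, Csa10g042920.1 had the highest early level, 25.3 to 169.9 CPM with a median of 51.4, and was at least 232-fold lower in CN 113691. The other late accessions expressed it, at 8.97 to 66.9 CPM. No count in CN 113691 and at least 1 CPM in every other library of that depth held for 2 models. Csa17g036030.1 had 6.36 to 38.4 CPM in those libraries and was at least 75.5-fold below the early mean, and Csa11g017450.1 had 1.14 to 22.7 CPM and was at least 65.8-fold below it. No model met the corresponding rule for expression in CN 113691 alone.

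**Figure D3:**
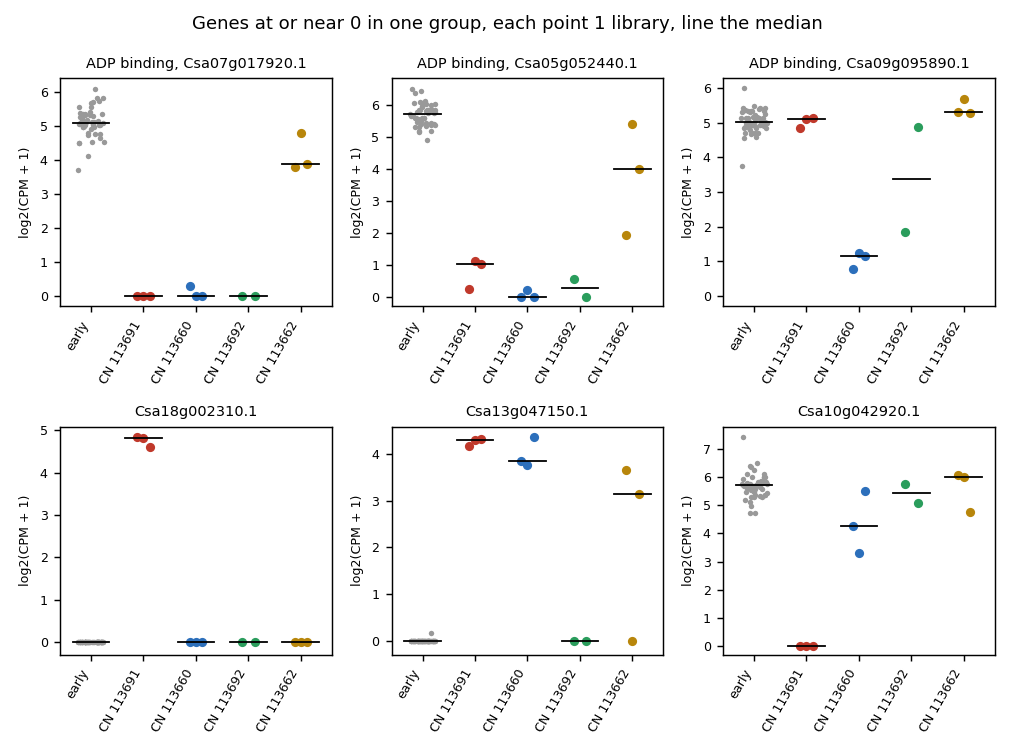
Each panel is 1 gene model, the y axis is log2(CPM + 1), each point is 1 library and the black line is the group median. CN 113691 (red) is at 0 for Csa07g017920.1 and Csa10g042920.1, near 0 for Csa05g052440.1, at the early level for Csa09g095890.1, and the only one of the 5 groups above 0 for Csa18g002310.1.

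The calls were not spread evenly along the chromosomes. In the gene IDs, which number the models along each chromosome, a stretch at the start of chromosome 14 stood out, with 12 clear lower loci in a window of 25 tested loci where the highest number on any other chromosome was 5. The bounds used below, Csa14g001150.1 to Csa14g001720.1, were drawn after the values were seen. All 34 tested models of the stretch had a negative log2 fold change, 33 were called lower, none higher, and the median was -2.82. The 34 tested models that follow it had a median of 0.02 with none called lower.

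The 3 libraries of CN 113691 differed from each other in this stretch. The summed level of the 34 models was 4.67 CPM in Cs010, 9.46 in Cs019 and 213 in Cs030, beside 497 to 642 (median 563) in the early libraries. These are 0.830%, 1.68% and 37.8% of the early median. Cs010 had no count for 23 of the models and Cs019 for 24, while Cs030 had none for only 2. Csa14g001340.1, the most highly expressed of them, had 0.360, 1.15 and 55.5 CPM against 125.7 to 251 in early libraries (log2 fold change -3.38, SE 0.47, edgeR adjusted p 5.72e-07, but 0.535 against Cs046 and Cs048 alone). No other library of at least 200000 counts fell below 481 CPM in sum, and the other late accessions had 511 to 632. The stretch was called lower in 25, 25 and 33 models without Cs010, Cs019 and Cs030, in 26 with counts summed per accession, and in 3 against Cs046 and Cs048 alone.

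The start of chromosome 3 showed the opposite. Its first 40 tested models, Csa03g001020.1 to Csa03g001810.1, also bounded after the values were seen, all had a positive log2 fold change, with 26 called higher, none lower and a median of 0.95. Their summed level was 1132 CPM in Cs010, 1264 in Cs019 and 1017 in Cs030, each above the highest of the 51 early libraries (486 to 766, median 577). Cs010, Cs019 and Cs030 thus stood at 196%, 219% and 176% of the early median, and Cs030 was the lowest here and the highest on chromosome 14. Csa03g001660.1, with the highest CN 113691 level among the models called, had 201, 235 and 185 CPM against 24.3 to 178 in early libraries (log2 fold change 1.85, SE 0.30, edgeR adjusted p 2.10e-05, but 0.277 with counts summed per accession and 0.233 against Cs046 and Cs048 alone). The next 40 models on chromosome 3 had a median of 0.10 and none called in either direction. The test called 16 of the 40 higher without Cs019, 3 with counts summed per accession and 7 against Cs046 and Cs048 alone.

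Chromosomes 3, 14 and 17 carry the 3 SPL4 copies that the study treats as one triad. The first 36 tested models of chromosome 17 showed neither shift, with a median of -0.01 and a summed level of 654 to 687 CPM within the early range of 561 to 760. Summed together, the chromosome 14 and chromosome 3 stretches had 1136, 1273 and 1230 CPM in Cs010, Cs019 and Cs030, inside the early range of 1021 to 1376. These are different models within bounds drawn after the values were seen, and whether 1 stretch offsets the other was not tested. Over the first 36 tested models of each of the 20 chromosomes, the median log2 fold change was -2.76 on chromosome 14, 0.93 on chromosome 3 and between -0.12 and 0.15 on the others. Which models of these chromosomes are copies of one another was not analysed here. The chromosome 17 models may thus not be copies of those in the stretches, so they do not show the level of the remaining copies.

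**Figure D4:**
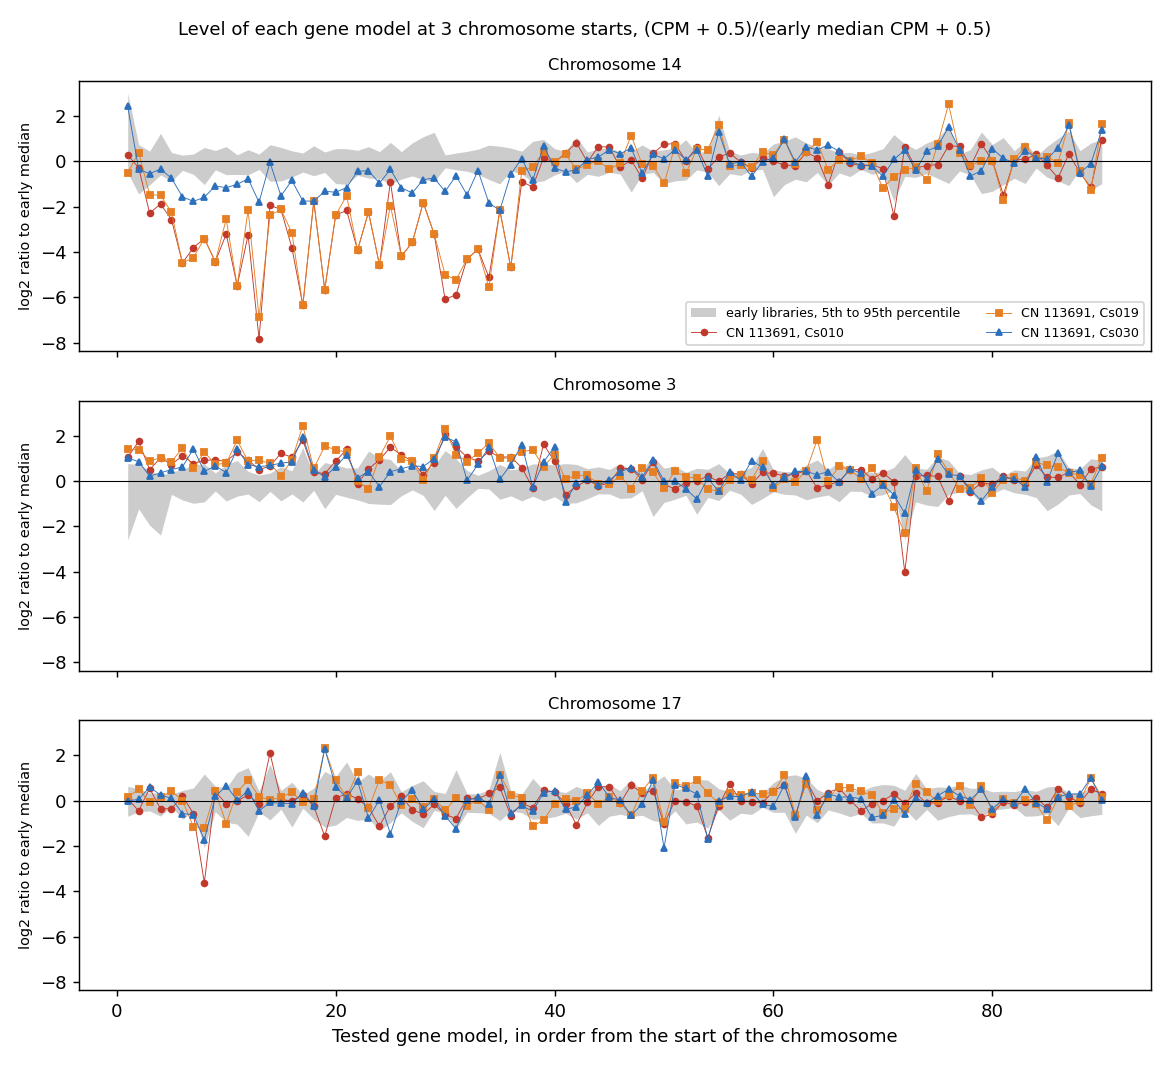
The x axis numbers the first 90 tested gene models of chromosomes 14, 3 and 17, and the y axis is the log2 ratio of (CPM + 0.5) to (early median CPM + 0.5). Grey bands span the 5th to 95th percentile of the early libraries and lines join the values of each CN 113691 library. Cs010 and Cs019 lie below the band over nearly all of models 3 to 36 of chromosome 14 and Cs030 lies between them and 0, while all 3 lie mostly above 0 over the first 40 models of chromosome 3.

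**Figure D5:**
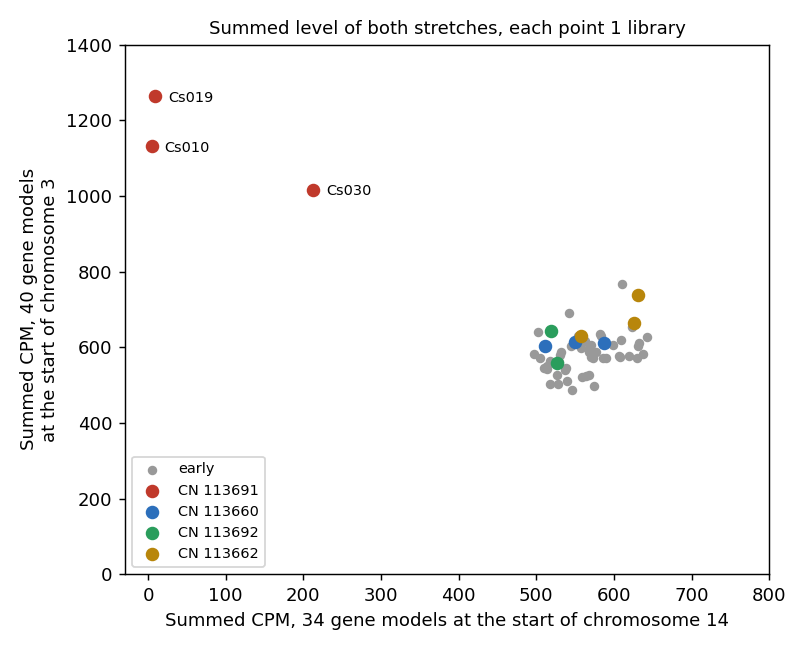
Each point is 1 library, placed by its summed CPM over the 34 models at the start of chromosome 14 (x axis) and over the 40 at the start of chromosome 3 (y axis). The early and other late libraries form 1 cloud, and the 3 CN 113691 libraries lie outside it, Cs030 between Cs010 and Cs019 and the cloud on the x axis.

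Shifted stretches were not particular to CN 113691. With a running median over 25 tested models of each library's log2 ratio to the early median, the lowest value was -3.81 in Cs010, -3.58 in Cs019 and -1.16 in Cs030, all at the start of chromosome 14. Of the 51 early libraries, 15 had a window at -1 or lower somewhere. Only 1 reached -2, Cs150 of CN 101985, at -3.86 on chromosome 10. Outside the Cs codes, S001C2D, S001C5C and S001C20 of early accessions reached -4.03, -3.80 and -3.62. The lowest windows were -1.60 to -1.48 in CN 113660, -1.68 and -2.04 in CN 113692, and -1.13 to -0.58 in CN 113662. The highest windows of Cs010, Cs019 and Cs030 were 1.05, 1.07 and 0.674, all at the start of chromosome 3. A window at 0.8 or higher was found in 14 early libraries, and Cs082 of CAM 219 reached 2.82 on chromosome 19. In the other late accessions the highest windows were 0.729 to 1.37 in CN 113660, 1.27 and 1.55 in CN 113692, and 1.05 to 2.24 in CN 113662. The early libraries are part of the median they are measured against.

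Smaller runs of neighbouring clear calls lay elsewhere. The longest had 5 tested loci in a row, Csa15g009490 to Csa15g009530, all lower. With the adjoining model Csa15g009470.1, its summed level was 4.14, 4.59 and 21.6 CPM in Cs010, Cs019 and Cs030 against 51.6 to 89.1 in the early libraries, so Cs030 was again the highest of the 3. There were 4 runs of 3 loci, 3 of them within the chromosome 14 stretch and the other at Csa03g058000 to Csa03g058020, where 2 of the 3 loci belong to the tan module. There Cs030 did not stand apart. Over Csa03g057980.1 to Csa03g058020.1 the summed level was 16.5, 30.7 and 23.7 CPM, with 102.4 to 188 in the early libraries.

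By chromosome, the share of tested models with a clear call ran from 0.309% on chromosome 1 to 1.09% on chromosome 3, and it was 1.79% on unplaced scaffolds (10 of 560). The subgenomes differed little, with 0.796%, 0.681% and 0.702% on subgenomes 1, 2 and 3. The stretch on chromosome 14 held 14 of the 199 lower and that on chromosome 3 held 4 of the 140 higher clear calls.

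The SPL4 triad and the other 2 triads had no copy called in CN 113691. The SPL4 copy Csa03g060290 nevertheless made up 38.5%, 42.9% and 38.5% of the triad's summed CPM, above the highest early share of 35.3% (median 14.3%), at a level of only 1.72 to 2.55 CPM. Its log2 fold change was 0.67 (SE 0.64, edgeR adjusted p 0.646). The balanced triad stayed balanced, with mean shares of 26.2% ± 0.435, 33.2% ± 2.98 and 40.7% ± 2.73 (SD, n = 3) for Csa11g001340, Csa10g001220 and Csa12g001280 and early medians of 26.996%, 34.7% and 37.7%. In the triad biased to subgenome 3, Csa02g072860 held 82.8% ± 7.999 (SD, n = 3) of the sum, beside an early median of 82.7%.

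Of 20 tested genes at or next to the study's FT-associated SNPs, 2 were higher, 1 was lower and 17 did not pass. Over all models, 2.49% were higher and 3.01% lower. Counts this small say nothing particular about the list. Csa14g006420.1, a calcium-binding tetratricopeptide protein gene, had 18.2, 25.2 and 18.6 CPM, above the highest early library at 17.8, with a log2 fold change of 0.65 (SE 0.14, edgeR adjusted p 0.00150). The phosphate translocator gene Csa20g025800.1 was 1.69-fold lower (15.5, 13.8 and 17.3 CPM against an early median of 25.4, edgeR adjusted p 0.0151). By the study, 1 of these SNPs lies in that gene. The pentatricopeptide repeat gene Csa06g036840.1 was 2.15-fold higher (3.96, 3.44 and 3.82 CPM against 1.58, edgeR adjusted p 0.0421). These last 2 calls were each lost in 6 of 10 alternatives and that of Csa14g006420.1 in 3.

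CN 113691 was then compared directly with the late accessions nearest to it in FT. These comparisons use the same 3 CN 113691 libraries as the one with the early accessions, so their calls are not independent of it. Against CN 113660, 941 of 37770 models tested (2.49%) were higher in CN 113691 and 1015 (2.69%) lower. Against CN 113692, 623 of 39149 (1.59%) were higher and 829 (2.12%) lower. Without Cs034 of CN 113660, 1160 models were called in place of 1956. The CN 113692 library Cs008 held 646716 counts. Without it 943 models were called in place of 1452, and without the other library, Cs007, 169.

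None of the flowering genes tested was called between the late accessions, 4 against CN 113660 and 5 against CN 113692. Of all models, 2.49% were higher and 2.69% lower against CN 113660, and 1.59% and 2.12% against CN 113692. With 4 and 5 genes tested, the lack of a call says nothing particular about the list. SOC1 on chromosome 6 had a log2 fold change of -0.08 against CN 113660 (edgeR adjusted p 0.939) and of -0.43 against CN 113692 (0.623), with 3.95 to 7.83 and 7.52 to 8.004 CPM in those accessions. The copy on chromosome 4 was too low in all of them to be tested. Of the tan models tested against CN 113660, 39 were higher in CN 113691 (38.6%, beside 2.49% of all models) and 1 was lower. Their median log2 fold change was 0.87. Against CN 113692, 40 were higher (34.8% of those tested) and 8 lower, with a median of 0.80. Fewer tan models passed the filter on low counts in these comparisons than against the early accessions. Models low in both late accessions were left out, so these shares and medians do not describe the whole module.

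The clear calls with the largest size between late accessions were all models with no or almost no count on one side. Such models entered the test through the accession where they are high, so their difference follows from that choice. Csa02g030890.1 (32.4, 35.6 and 21.6 CPM) and Csa15g017400.1 (25.5, 32.4 and 31.6 CPM) were expressed in CN 113691 and had no count in CN 113660. The first also had none in 48 of the 51 early libraries, whereas the second had an early median of 16.3 CPM. Csa05g018350.1 and Csa20g022000.1 had no count in CN 113691 and 49.1 to 88.8 and 35.1 to 68.4 CPM in CN 113660, and both had none in 50 of the 51 early libraries. Against CN 113692 the models were Csa07g049730.1 and Csa08g007640.1 (113.3, 182 and 76.9 CPM and 68.9, 122.2 and 54.2 CPM in CN 113691, no count in CN 113692), and on the other side Csa05g018350.1 and Csa11g087900.1. The latter had 287 and 373 CPM in CN 113692, an early median of 134.6 CPM and at most 0.287 CPM in CN 113691.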

How the data were processed

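Reads of the leaf RNA libraries were trimmed by the authors (Trimmomatic 0.32), aligned (STAR 2.7.10a) and assigned to gene models (featureCounts 2.0.1). The deposited values are raw counts, not normalized and not pooled. The strand setting and the build are not given in the sources used here, so near-identical copies, overlapping and antisense genes are uncertain. The table holds 94495 gene models, and the single library of Licalla was left out.

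Samples were grouped by the genotype and flowering time labels. The members and gene lists were chosen with earlier results of these data known. Models were filtered with filterByExpr, scaled by trimmed mean of M-values (TMM) and tested with edgeR 4.0.16 in R 4.3.3 (robust quasi-likelihood). The SE is the log2 fold change divided by the square root of F. CPM levels use 1 TMM scaling over 148 libraries with at least 200000 counts. Folds against 0 use a floor of 3 counts per group, which covers counting error only. Named genes were all genes of the short lists, list genes called in the early comparison, the 5 tan genes with the largest fall, the 2 largest clear changes of at least 5 CPM per direction, the longest runs, and the 2 highest of each on or off set. Csa14g001340.1, Csa03g001660.1 and the bounds of the stretches were chosen after their values were seen. Alternatives were size factors (RLE), DESeq2 1.42.0, no filter, each library left out, counts per accession and other early sets. The test was run on simulated counts drawn independently for each library, which does not cover early libraries that share an accession.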

Additional observations from a re-analysis of the deposited data

How the results depend on the processing

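Calls are given as a count and as a percentage of the models tested, which changes with the filter. Scaling by RLE size factors kept every count within 1.5 times. Leaving out 1 library of CN 113691 gave calls in 2.16% to 2.62% of models (1021 to 1238) against the early accessions, where 5.49% (2520) were called with all 3, and clear calls in 0.829% to 1.04%. Counts summed per accession gave calls in 0.668% (346). The early libraries of all 3 code series gave clear calls in 0.316% (153), and Cs046 and Cs048 alone calls in 3.45% with clear ones in 3.23% (1275), where a range of 2 libraries is easier to leave than one of 51. Without a filter, 3039 of 63500 models (4.79%) were called against CN 113660 and 2846 of 61686 (4.61%) against CN 113692, where DESeq2 called 2.32% (908). Leaving out 1 library of either accession gave 2.998% to 5.23% (1160 to 2043) against CN 113660, fewest without Cs034, and 0.414% to 4.89% (169 to 1830) against CN 113692, fewest without Cs007. Where 1 library was left, it was assumed to vary like the other accession. None of the named genes with a call changed direction under any of these settings. No paired analysis was possible because the labels give no replicate numbers. A limit of 3 counts over the 3 CN 113691 libraries is 0.231 CPM, and differences below it were not detectable at this depth. The causes of these shifts were not tested.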
